A study of Rattus norvegicus with 24 samples.

Results

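Among the 26404 gene IDs counted in rat liver, 88 varied widely between libraries of the same dose group in at least 3 of the 8 groups. An ID was marked in a group when its mean was at least 5 CPM (counts scaled to a common total of counts assigned to genes) and the highest of the 3 libraries was at least 4 times the lowest, after 0.5 CPM was added to both. The 88 members are IDs marked in 3 or more groups. For comparison, 8494 IDs reached the mean level in at least 3 groups, 365 IDs were marked in at least 1 group, and 71 were marked in exactly 2. The 3 IDs that the selection left out by name would not have been kept. Members were thus selected on their CPM spread within dose groups, and that spread is given here as a description without a test.

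The rats were female Sprague-Dawley animals, an outbred stock, of 57 days by the labels. They were dosed by gavage at intervals of 4 days, with sesame oil alone (vehicle) or with TCDD at 1 of 7 doses (0.01 and 0.03, 0.1 and 0.3, 1 and 3, and 10 µg/kg), and the liver was taken on day 28. Each group held 3 libraries, described by the series as biological replicates. What the replicate numbers stand for is not given in the sources used here. The libraries held 11816273 to 15804887 gene counts.

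TCDD is a chlorinated dioxin that binds the aryl hydrocarbon receptor, a ligand-activated transcription factor that induces genes of xenobiotic metabolism in liver. The animals of an outbred stock differ from each other in the alleles they carry, as inbred animals do not. The files and the reference tables used here did not pair the IDs with gene symbols, so the roles of the members, and the labelled tissue, could not be checked against known genes. Members are numbered M1 to M88, from most to fewest groups marked and, within ties, by the geometric mean of their ratios, and only 4 are given with their IDs. In a bulk sample, fewer cells of a type cannot be told apart from less RNA per cell.

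Of the 88 members, 44 were marked in 3 groups, 24 in 4, 15 in 5, 3 in 6 and 2, M1 and M2, in 7. The groups contributed unequally. Members marked numbered 62 in the 1 µg/kg group, 57 in vehicle, 53, 44 and 41 in the 0.3, 10 and 0.1 µg/kg groups, 33 and 27 in the 0.01 and 0.03 µg/kg groups, and 18 in the 3 µg/kg group. The median highest-to-lowest ratio of the members was 5.46 in vehicle and 5.39 at 1 µg/kg, against 2.07 at 3 µg/kg. Over all IDs that reached the mean level it lay between 1.25 and 1.34 in every group. At the edge of the selection, the third highest ratio was 4.01, 4.04 and 4.05 in M81, M78 and M71, and 3.99, 3.97 and 3.96 in the nearest IDs outside.

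A few libraries carried much of this spread. A library stood apart when a member was at least 4-fold above, or at least 4-fold below, both other libraries of its group (with 0.5 CPM added). This occurred for 258 of the 2112 pairs of library and member. Vehicle replicate 1 stood apart for 39 members, 20 above and 19 below. At 1 µg/kg, replicate 1 stood apart for 36 members, 17 above and 19 below. The next were replicate 3 at 0.3 µg/kg with 27 (11 above and 16 below), replicate 3 at 0.1 µg/kg with 23 (12 and 11), replicate 1 at 10 µg/kg with 21 (11 and 10) and replicate 3 at 0.01 µg/kg with 16 (8 and 8). Every other library stood apart for at most 10 members, and replicate 2 at 0.3 µg/kg for none. These libraries were therefore high for some members and low for a similar number of others.

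The members that set these libraries apart varied together. Deviations from the group mean, on the log2(CPM + 0.5) scale, were correlated between members over the 24 libraries. Points of these correlations share libraries, and the values are descriptions. Members were joined at a mean r of at least 0.6. Set A held 25 members, with a median pairwise r of 0.718 (rho 0.722). Set B held 22, with a median r of 0.840 (rho 0.833), and set C held 4 (M41, M66, M83 and M85), with a median r of 0.759. A further 18 members formed 9 pairs, and 19 stood alone.

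**Figure D1:**
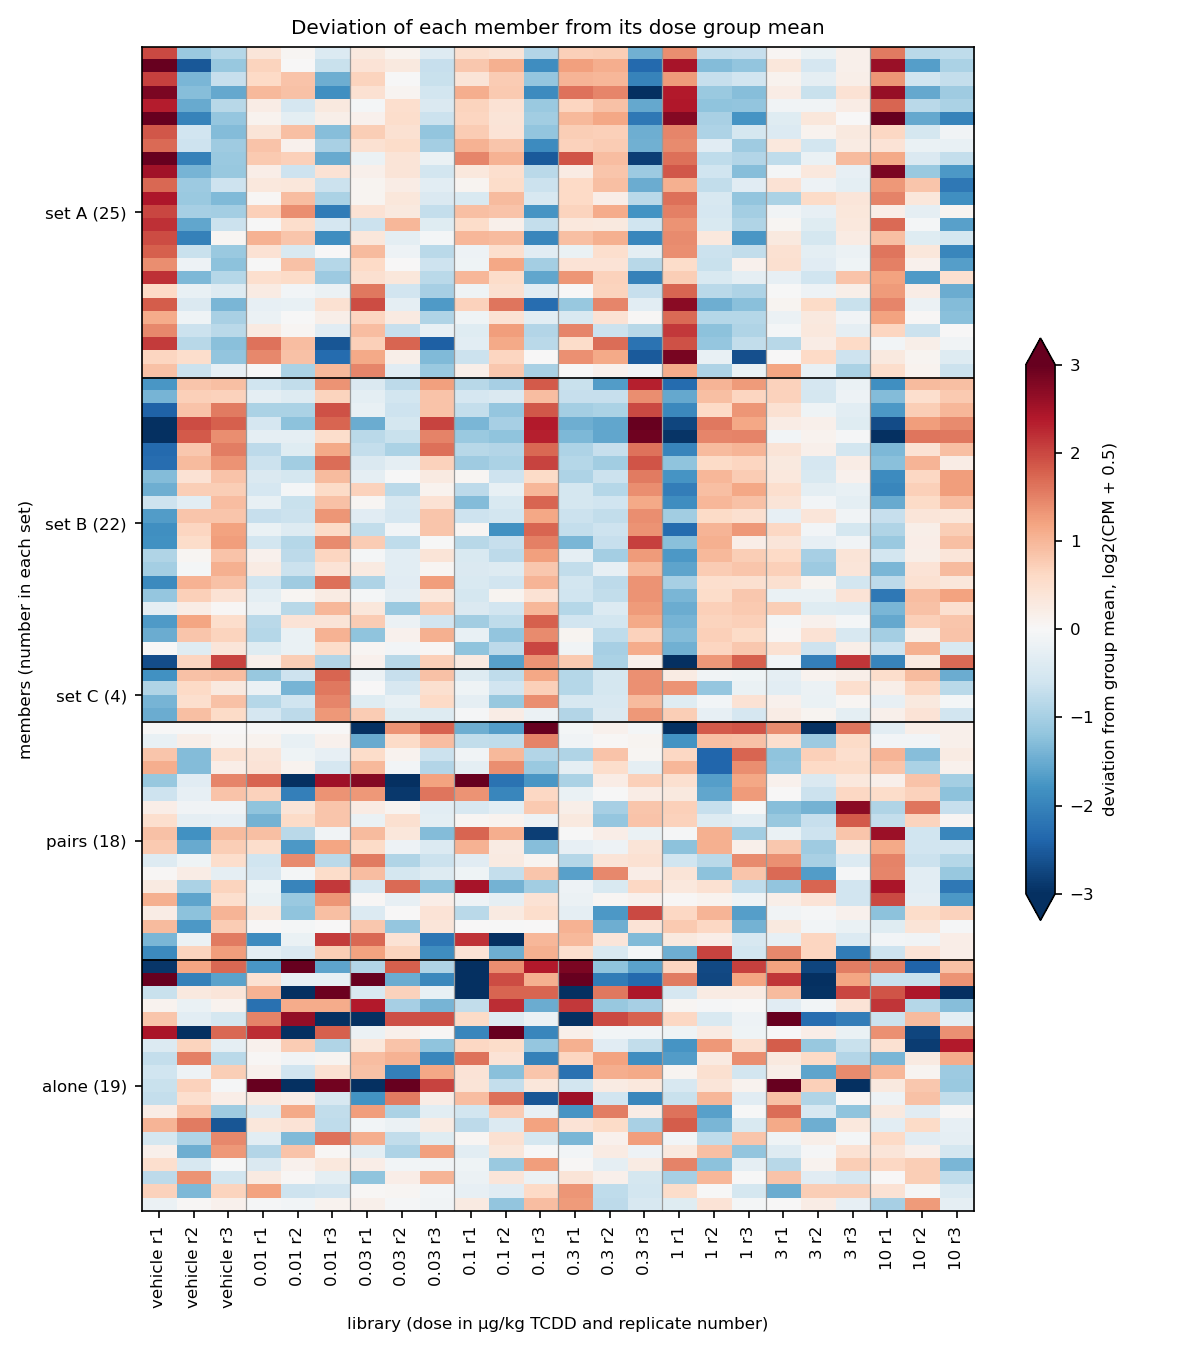
Each row is a member and each column a library, and colour gives the deviation from the dose group mean in log2(CPM + 0.5), with the scale ending at 3 either way. Set A (25 members) and set B (22 members) have opposite colours in vehicle replicate 1, in replicate 1 at 1 and 10 µg/kg and in replicate 3 at 0.1 and 0.3 µg/kg.

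Sets A and B mirrored each other. The mean deviation of set A and that of set B had r = -0.976 and rho = -0.950 over 24 libraries, and r = -0.970 over the 22 left without the 2 farthest. In vehicle replicate 1, set A lay 1.98 above its group mean on the log2 scale, with 25 of 25 members above it, and set B lay at -1.68 with 0 of 22 above. In replicate 1 at 1 µg/kg the mean deviations were 1.72 and -1.79, and in replicate 1 at 10 µg/kg they were 1.34 and -1.49. At 0.01, 0.03, 0.1 and 0.3 µg/kg replicate 3 was the library with low set A and high set B. Its set A means there were -0.76, -0.77, -1.14 and -1.43, and its set B means were 0.90, 0.70, 1.45 and 1.51. The odd library was thus replicate 1 in 3 of the groups, high in set A, and replicate 3 in 4 of them, low in set A.

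The 3 libraries of the 3 µg/kg group lay closest together. They spanned 1.12-fold in the mean level of set A and 1.56-fold in that of set B, against 8.08-fold and 6.38-fold in vehicle. In the other 6 groups the span was 2.32-fold to 6.40-fold for set A and 2.24-fold to 6.45-fold for set B. These spans come from the values that chose the members and carry no test. The library measures that follow were likewise taken as deviations from the group mean, so differences between groups do not enter. The gene counts of a library had r = 0.14 with set A (rho 0.15; 0.15 without the 2 farthest) and r = -0.10 with set B. The share of counts outside genes had r = 0.10 with set A (-0.33 without the 2 farthest), and that of alignments that were not unique r = 0.22 (-0.06).

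**Figure D2:**
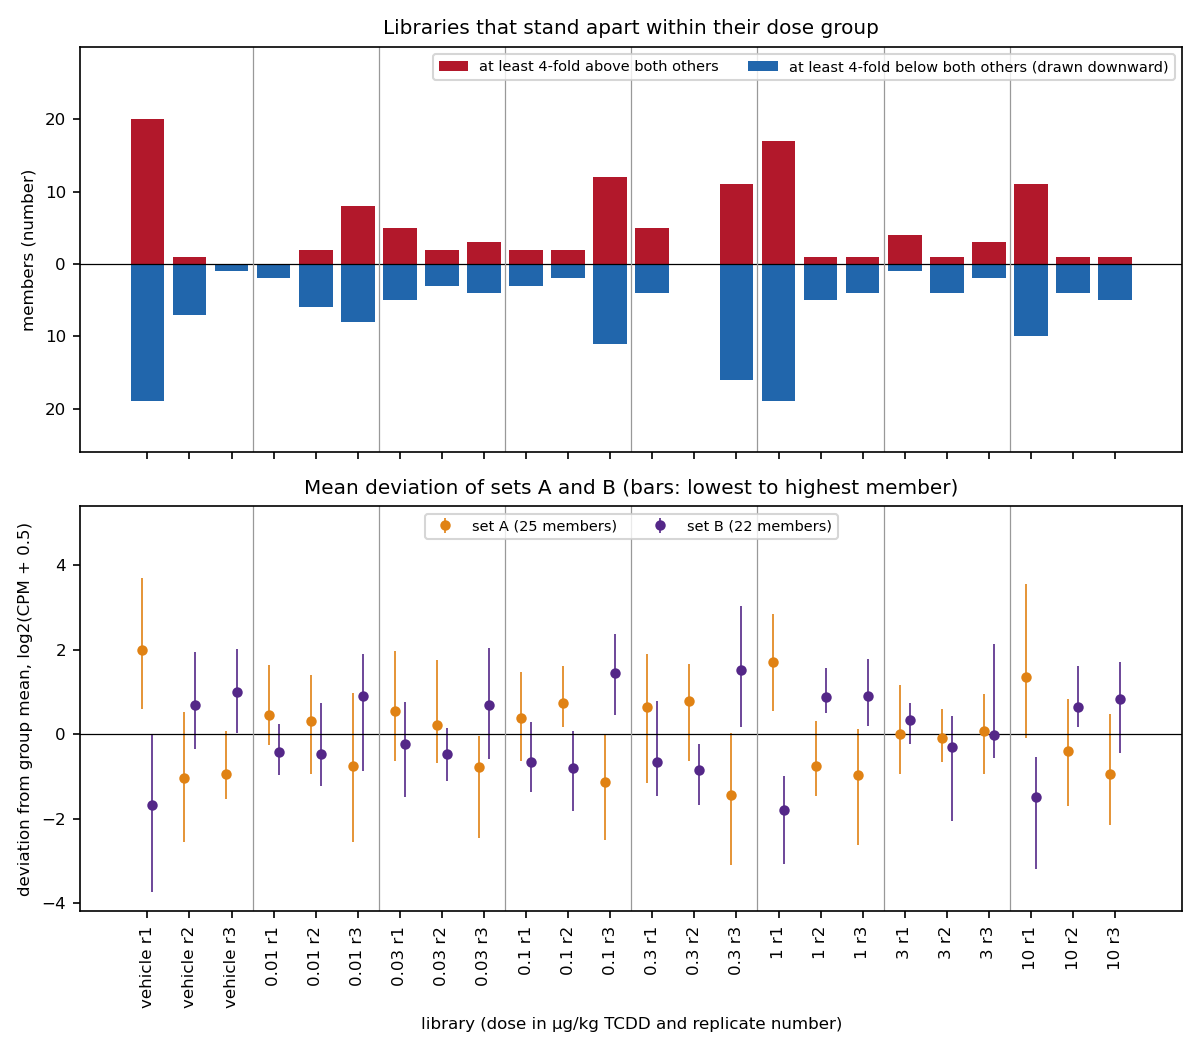
The upper panel gives the number of members at least 4-fold above (red) or below (blue, drawn downward) both other libraries of the group, highest in vehicle replicate 1 (20 and 19) and replicate 1 at 1 µg/kg (17 and 19). The lower panel gives the mean deviation of sets A and B in each library as points, with bars from the lowest to the highest member, and the sets lie on opposite sides of 0 in every library outside the 3 µg/kg group.

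M44 had the highest mean correlation with the rest of set A. In replicates 1, 2 and 3 it was at 138, 15.7 and 18.8 CPM in vehicle, at 152, 124 and 88.6 CPM at 0.01 µg/kg, and at 144, 127 and 90.6 CPM at 0.03 µg/kg. At 0.1 µg/kg it was at 128, 120.1 and 49.5 CPM, at 0.3 µg/kg at 119.6, 122 and 26.8 CPM, and at 1 µg/kg at 117, 26.8 and 27.2 CPM. At 3 µg/kg it was at 109, 90.2 and 115 CPM, and at 10 µg/kg at 98.5, 18.7 and 19.5 CPM. The 7 lowest libraries, at 15.7 to 27.2 CPM, were replicates 2 and 3 of vehicle, 1 and 10 µg/kg and replicate 3 at 0.3 µg/kg, and the other 17 lay between 49.5 and 152 CPM. M9 had the same order of libraries in vehicle, with 76.5, 0.518 and 2.19 CPM, and at 10 µg/kg, with 37.5, 1.52 and 2.76 CPM. M33 was at 499.8, 46.0 and 74.5 CPM in vehicle and at 586, 155 and 142 CPM at 10 µg/kg. In M44, M9 and M33, no library of the 3 µg/kg group came down to the level of vehicle replicates 2 and 3.

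M2 was the member closest to the rest of set B and was marked in every group except 3 µg/kg. In replicates 1, 2 and 3 it was at 11.4, 70.3 and 72.6 CPM in vehicle, at 13.0, 11.9 and 51.4 CPM at 0.01 µg/kg, and at 9.40, 7.30 and 31.0 CPM at 0.03 µg/kg. At 0.1 µg/kg it was at 13.9, 12.3 and 91.8 CPM, at 0.3 µg/kg at 8.29, 3.81 and 69.7 CPM, and at 1 µg/kg at 3.80, 43.2 and 51.4 CPM. At 3 µg/kg it was at 4.63, 1.72 and 2.27 CPM, and at 10 µg/kg at 4.22, 32.3 and 31.4 CPM. Within each group but the 3 µg/kg one, the high libraries of M2 were the low libraries of M44. Over all IDs tested, the ID most like M2 was M43 (r = 0.975, rho 0.913, 24 libraries). M43 was at 10.5, 47.03 and 46.7 CPM in vehicle and at 15.7, 6.50 and 8.50 CPM at 3 µg/kg. M5 was at 4.37, 46.96 and 76.2 CPM in vehicle and at 3.65, 2.27 and 1.94 CPM at 3 µg/kg.

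**Figure D3:**
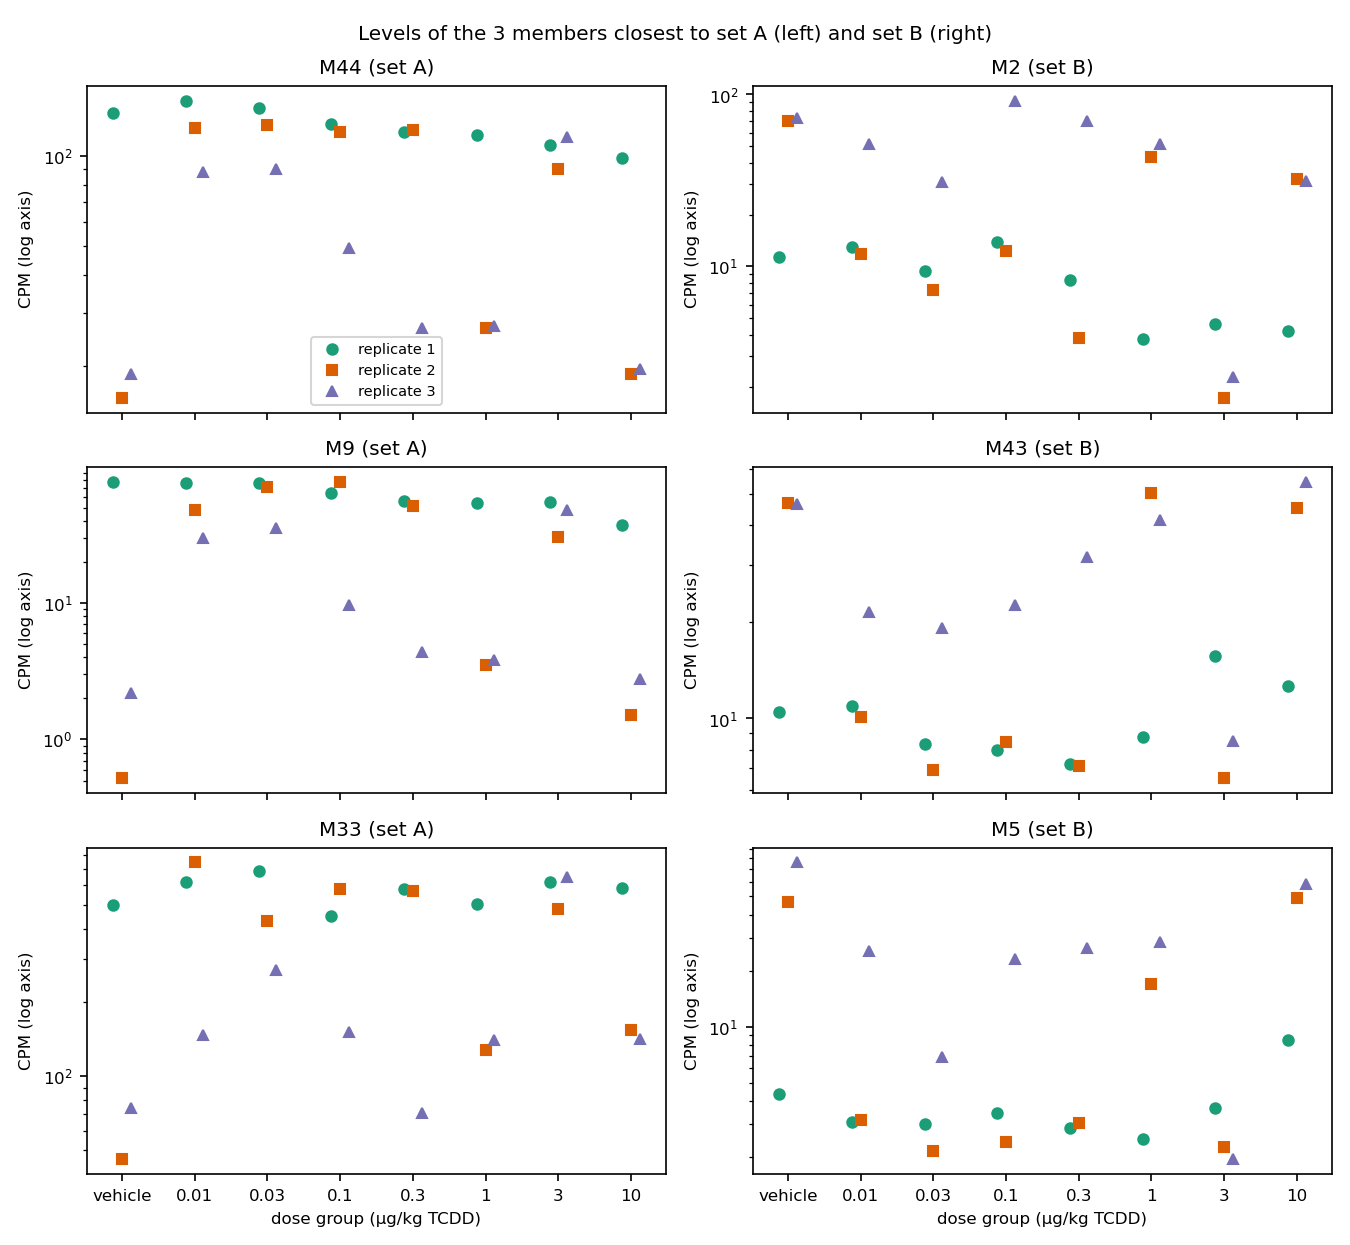
CPM on a log axis (y) by dose group in µg/kg TCDD (x), with 1 point per library and a symbol for each replicate number, for M44, M9 and M33 of set A (left) and M2, M43 and M5 of set B (right). The library apart is replicate 1 in vehicle, 1 and 10 µg/kg and replicate 3 at 0.01 to 0.3 µg/kg, and the 3 libraries at 3 µg/kg lie together at the high level of set A and the low level of set B.

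Replicate number was also tested directly, as a term beside the 8 groups. With edgeR and Benjamini-Hochberg adjustment it called 0 of the 12496 IDs tested (0%) and 0 of the 88 members. At an unadjusted p below 0.05 it had 51 members (58.0%) and 1993 of all IDs (15.9%), and DESeq2 called 29 members and 4.07% of all IDs. Without a filter on low counts edgeR called 13 members and 0.648% of all IDs. The within-group spread that this term divides up chose the members, so nothing is read from these counts. The count of members called by edgeR rose to 26 without replicate 3 at 3 µg/kg, 24 without replicate 1 there, and 15, 9, 8, 7 and 4 without replicate 2 at 1 µg/kg, vehicle, 0.1, 0.3 and 10 µg/kg, in that order. The shares of all IDs called were 2.24%, 2.38%, 1.59%, 0.662%, 0.598%, 0.559% and 0.261% in the same order.

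Some members took separate levels across the 24 libraries. They were picked after their values were seen, as those with a gap of at least 4-fold between neighbouring libraries when all 24 were ordered (with 0.5 CPM added). There were 9 among the 88, of which 6 had at least 3 libraries on each side of the gap. Of the 8359 IDs whose mean over all libraries was 5 CPM or more, 26 had such a gap and 15 had it with at least 3 libraries on each side. The 9 were M3, M6, M11, M21, M24, M45, M47, M60 of set B and M65 of set A. The gap set apart only libraries at 10 µg/kg in M11 (2 low), M60 (2 high) and M65 (1 low), and libraries of several doses in the other 6.

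M21 had the widest gap, 33.8-fold. It had 0 counts in 4 libraries and 1 count in 1 other. These 5 were replicate 3 at 0.01 µg/kg, replicate 1 at 0.03 and 0.3 µg/kg, and replicates 2 and 3 at 3 µg/kg. The other 19 libraries fell into 13 between 19.1 and 29.4 CPM and 6 between 41.7 and 58.1 CPM, with none between. The 3 levels were spread over doses, and vehicle held the middle and the upper one. A count of 0 allows up to 3 counts, which is 0.190 to 0.254 CPM in these libraries, for counting error only.

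M24 was at 48.5 and 28.9 CPM in vehicle replicates 1 and 3, at 37.4 and 27.6 CPM in replicates 1 and 3 at 0.01 µg/kg, at 29.2 CPM in replicate 2 at 0.1 µg/kg and at 8.29 CPM in both replicates 1 and 3 at 10 µg/kg. The other 17 libraries, vehicle replicate 2 among them, held 0 to 2 counts, and 11 of them held 0. M6 was at 0.202 to 1.72 CPM in 5 libraries (replicate 2 at 0.01 and 3 µg/kg, replicate 1 at 0.1 and 0.3 µg/kg and replicate 3 at 10 µg/kg) and at 28.1 to 106 CPM in the other 19. M45 was at 1.46, 1.78 and 1.30 CPM in replicate 2 at 0.01, replicate 1 at 0.03 and replicate 3 at 3 µg/kg, and at 25.0 to 2330 CPM elsewhere. No 2 of M21, M24, M6 and M45 had an identical set of low libraries, but the sets overlapped. All low libraries of M45 were also low in M24, which was low in 17 libraries. Of them, replicate 1 at 0.03 and replicate 3 at 3 µg/kg were low in M21, and replicate 2 at 0.01 µg/kg in M6. M21 and M6 shared replicate 1 at 0.3 and replicate 2 at 3 µg/kg.

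M1, the other member marked in 7 groups, missed this gap narrowly, at 3.96-fold. It was at 0.155 to 1.77 CPM in 11 libraries and at 8.50 to 52.3 CPM in 13, and every group held both levels. In vehicle its replicates 1, 2 and 3 were at 0.460, 16.0 and 23.5 CPM, and at 10 µg/kg at 34.3, 1.77 and 21.8 CPM. The ID most like M1 among all tested was not a member and had r = 0.741 (rho 0.803, 24 libraries). M17 had a narrower gap of 2.93-fold, and other members such as M25 (3.35-fold) had wider ones. It had 8 libraries at 244 to 365 CPM and 16 at 7.21 to 82.8 CPM. Its 3 vehicle libraries were at 29.5, 23.7 and 29.2 CPM and its 3 libraries at 1 µg/kg at 264, 244 and 249 CPM. At 3 µg/kg they were at 11.8, 14.0 and 20.2 CPM and at 10 µg/kg at 82.8, 9.87 and 7.21 CPM. The groups at 0.01 to 0.3 µg/kg held both levels.

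Some pairs shared their libraries closely. M47 and M87 had r = 0.985 (rho 0.894, and 0.977 without the 2 farthest) over 24 libraries, and the same 10 libraries were highest in both. In these 10, M47 was at 10.7 to 27.6 CPM and M87 at 22.0 to 36.4 CPM. In the other 14, M47 was at no more than 0.169 CPM and M87 at 3.53 to 6.97 CPM. M54 and M56 had r = 0.955 (rho 0.952; 0.933 without the 2 farthest), again with the same 10 libraries highest. M7 and M30 had r = 0.882 (rho 0.901; 0.813), and M64 and M78 r = 0.880 (rho 0.863; 0.836). The other 5 pairs had r of 0.616 to 0.736. Whether members of a pair share reads or lie near each other was not tested, since no coordinates of their build were used.

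**Figure D4:**
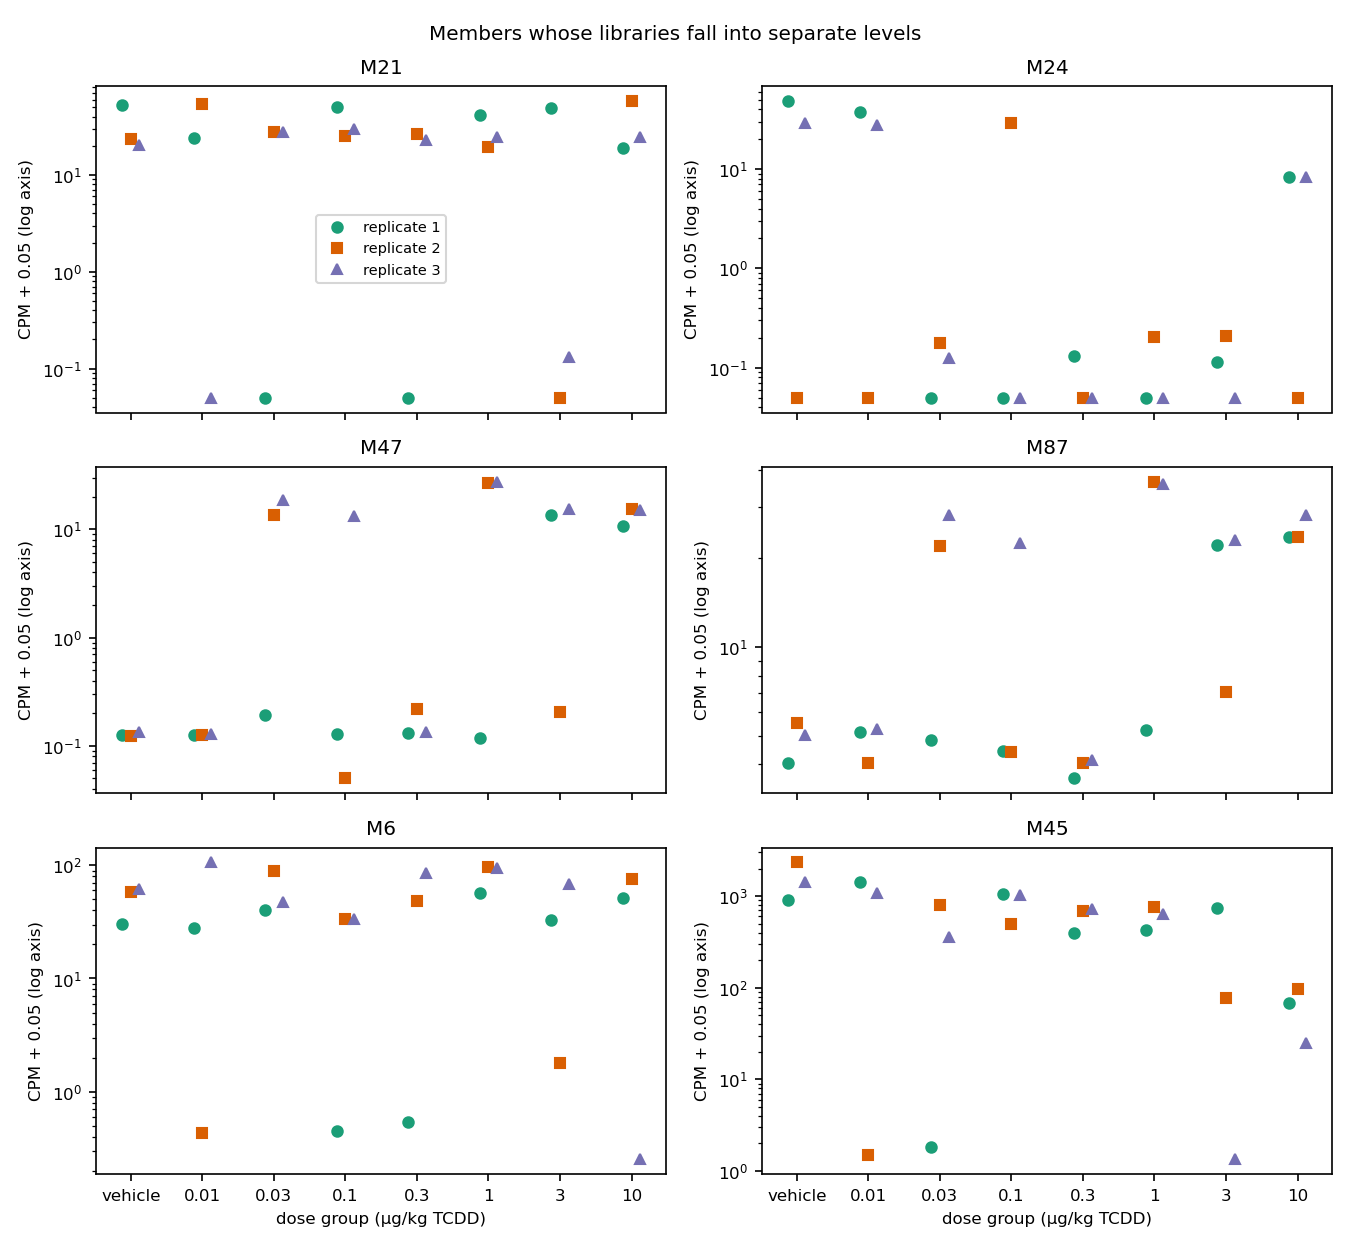
CPM + 0.05 on a log axis (y) by dose group in µg/kg TCDD (x), with 1 point per library and a symbol for each replicate number, for M21, M24, M47, M87, M6 and M45. Libraries of 1 dose group fall on either side of a gap, and M47 and M87 are high in the same 10 libraries.

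Dose tests compared group means. The selection used these means too, since an ID could be marked only in groups with a mean of at least 5 CPM, so the tests are not independent of it. A member that was below this level in 1 of the groups compared was selected through other groups, in which it was higher. The spread of the members lowers what such a test can call: their median biological coefficient of variation was 70.5%, against 18.5% over all IDs tested. At 10 µg/kg against vehicle, 20 of the 88 members changed (22.7%), 5 up and 15 down, by edgeR's quasi-likelihood test with Benjamini-Hochberg adjustment. Over all 12496 IDs tested 28.2% were called, 14.7% up and 13.5% down. Of the 64 members with at least 5 CPM in both groups 11 were called, against 29.4% of all such IDs, and the other 9 calls were of members below this level in 1 of the groups. With the replicate number as a block, 25 members were called, the 20 among them. All 3 libraries at 10 µg/kg lay below all 3 of vehicle for 16 members and above them for 4, against 12.7% and 29.8% of all IDs. The median log2 fold change was -0.68 for the members and -0.02 for all IDs.

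M60 (ENSRNOG00000006557), a member of set B, rose with dose while it kept the within-group pattern of its set. It was at 3.14, 3.99 and 10.0 CPM in vehicle, at 20.6, 14.9 and 12.7 CPM at 3 µg/kg and at 62.5, 266 and 337 CPM at 10 µg/kg. The 3 libraries at 10 µg/kg were above every library of the other groups, and replicate 1, low throughout set B, was the lowest of them. Its log2 fold change at 10 µg/kg was 5.12 ± 0.87 (SE, edgeR, adjusted p = 0.000199), and 5.76 without vehicle replicate 3. At 1 µg/kg it was at 7.26, 56.3 and 51.8 CPM, so that replicate 1 there lay within the range of vehicle. Its slope over the ranked doses was 0.74 ± 0.10 log2 per step (SE, edgeR, adjusted p = 3.58e-06).

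M47 (ENSRNOG00000051020) had the largest fitted rise at 10 µg/kg, and its libraries were split between high and low levels within several dose groups. It had 1 count in each vehicle library and 612 counts in all at 10 µg/kg (10.7, 15.2 and 15.1 CPM), a ratio of 177 with an exact 95% counting interval of 60.1 to 859. It was marked only at 0.03, 1 and 3 µg/kg, and its low vehicle level kept it from being marked there, so the rise is given as a description of levels. At 0.03 µg/kg it was at 0.142, 13.6 and 18.5 CPM, at 1 µg/kg at 0.0692, 26.9 and 27.6 CPM and at 3 µg/kg at 13.6, 0.157 and 15.5 CPM. At 0.01 and 0.3 µg/kg all 3 libraries were at 0.169 CPM or less, and at 0.1 µg/kg only replicate 3 was above, at 13.4 CPM. Both of the groups compared at 10 µg/kg were thus uniform while 4 of the other doses were mixed. The fitted log2 change was 7.12 ± 2.19 (SE, edgeR, adjusted p = 0.0190), and adjusted p was 0.0640, 0.0650 and 0.0544 without vehicle replicates 1, 2 and 3. Its slope over the ranked doses was not called. M87, high in the same libraries, changed by 2.20 ± 0.68 (SE, edgeR, adjusted p = 0.0192), and adjusted p was 0.0699 without vehicle replicate 1. M87 was at 3.99, 5.47 and 4.97 CPM in vehicle, below the mean level for marking. It was marked only at 0.03, 0.1 and 1 µg/kg, each with a high library, so its rise too is a description of levels.

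M7 (ENSRNOG00000029844) had the largest fitted fall among the members called at 10 µg/kg. It was at 49.9, 87.3 and 305 CPM in vehicle, at 5.998, 3.84 and 6.80 CPM at 3 µg/kg and at 1.09, 2.09 and 0.202 CPM at 10 µg/kg. The summed counts were 5453 in vehicle and 51 at 10 µg/kg, where its mean was too low for it to be marked. The fall is therefore given as a description of levels. M7 also dropped out of some libraries at low doses, with 0.536, 0.317 and 0.542 CPM in replicate 2 at 0.01, 0.03 and 0.1 µg/kg and 0.929 CPM in replicate 3 at 0.1 µg/kg. These 4 libraries were as low as those at 10 µg/kg, although the other 5 libraries at these doses were at 29.2 to 119.1 CPM. The log2 fold change at 10 µg/kg was -7.16 ± 1.87 (SE, edgeR, adjusted p = 0.00689), -6.11 without vehicle replicate 3 and -8.00 without replicate 2 at 10 µg/kg. Its partner M30 was at 42.5, 55.2 and 117.9 CPM in vehicle and at 2.62, 2.91 and 0.405 CPM at 10 µg/kg (log2 fold change -5.34 ± 1.10, SE, edgeR, adjusted p = 0.00116). M30 too was below the level for marking at 10 µg/kg.

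M13 (ENSRNOG00000010725) was at 2.53, 6.36 and 22.4 CPM in vehicle, at 3.56, 12.6 and 64.2 CPM at 0.01 µg/kg and at 78.2, 1.47 and 34.6 CPM at 0.1 µg/kg. It fell to 0.761, 0.687 and 0.235 CPM at 1 µg/kg, to 0.0652, 0.548 and 0 CPM at 3 µg/kg and to 0.0727, 0.0633 and 0.202 CPM at 10 µg/kg. From 1 µg/kg up, every library was below every library of the lower doses and vehicle. At 10 µg/kg the 3 libraries held 5 counts together, against 385 in vehicle, which makes vehicle 88.9 times higher (exact 95% counting interval 37.8 to 275). It was marked only in vehicle and at 0.01 to 0.3 µg/kg, where it was high. The fall is therefore given as a description of levels. The fitted log2 change was -6.56 ± 1.78 (SE, edgeR, adjusted p = 0.00883), -5.39 without vehicle replicate 3 and -7.22 without replicate 3 at 10 µg/kg.

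**Figure D5:**
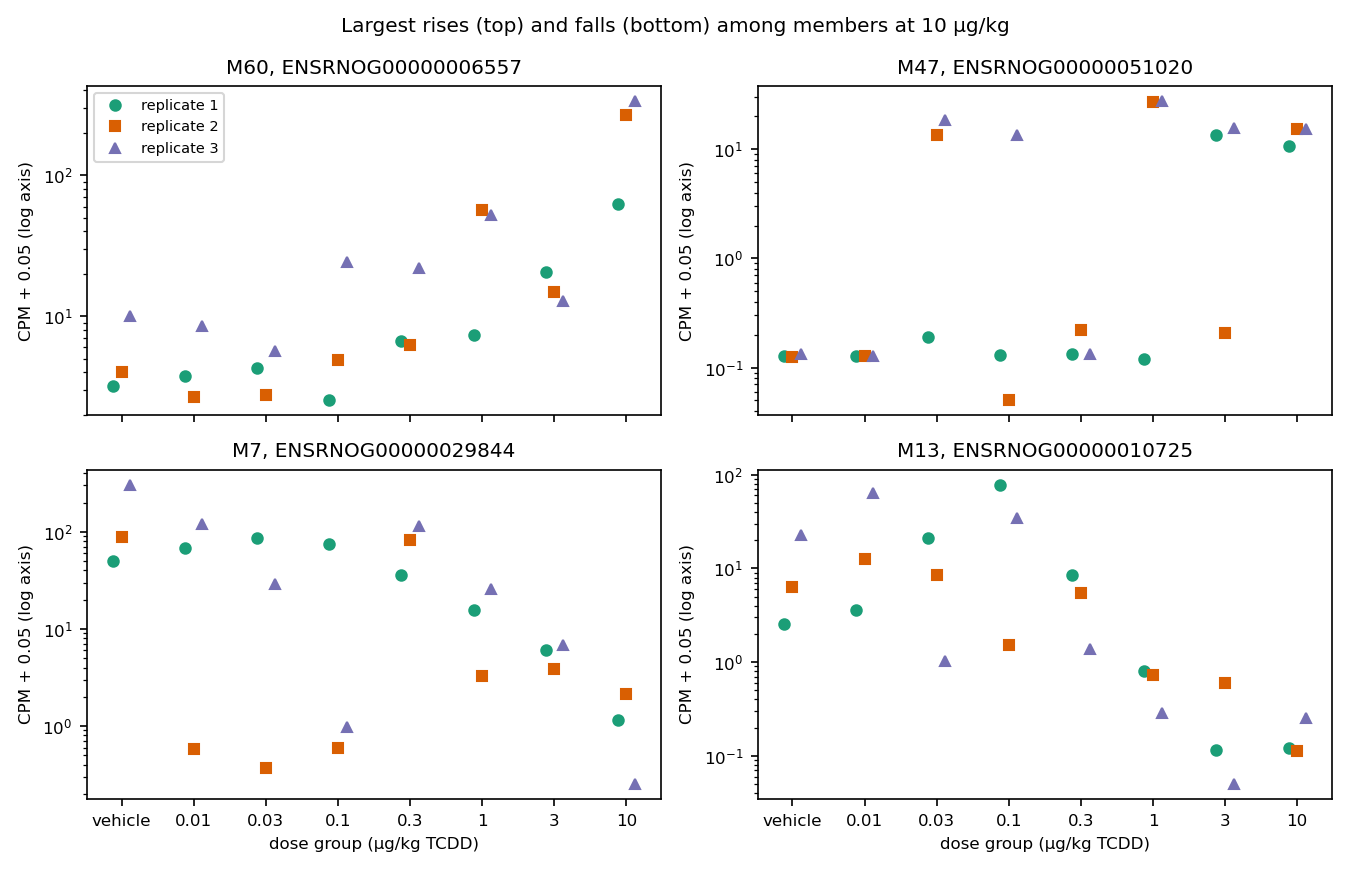
CPM + 0.05 on a log axis (y) by dose group in µg/kg TCDD (x), with 1 point per library and a symbol for each replicate number, for the 2 members with the largest called rises (M60 and M47) and falls (M7 and M13) at 10 µg/kg without overlap with vehicle. M60 climbs in all 3 libraries at 10 µg/kg. M47 has high and low libraries side by side at 0.03, 0.1, 1 and 3 µg/kg, and is low at 0.3 and high at 10 µg/kg. M7 is low in 1 library at 0.01 and 0.03 µg/kg, in 2 at 0.1 µg/kg and in all 3 at 10 µg/kg.

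In set A, 4 of 25 members fell at 10 µg/kg (M12, M26, M65 and M70) and 0 rose. Of all IDs, 13.5% were called as falls and 14.7% as rises, so nothing is read from these small counts by set. M65 was at 396, 56.4 and 77.4 CPM in vehicle and at 35.4, 25.5 and 2.76 CPM at 10 µg/kg (log2 fold change -3.21 ± 0.81, SE, edgeR, adjusted p = 0.00526). Without vehicle replicate 1, the library that stood highest in set A, its change was -1.85 with an adjusted p of 0.0721. M12 likewise moved from -5.89 to -3.81 without that library, with an adjusted p of 0.225. At 10 µg/kg M12 held only 1, 3 and 1 counts and M26 only 4, 3 and 0. Both were below the level for marking there, so these 2 falls are given as descriptions of levels. In set B, M60 was the 1 member of 22 that changed at 10 µg/kg. In set C, M66 and M85 fell, and both calls held under every alternative run. M66 was at 28.5, 81.6 and 65.3 CPM in vehicle, at 17.6, 2.67 and 5.71 CPM at 1 µg/kg, at 1.24, 1.41 and 2.59 CPM at 3 µg/kg and at 1.96, 2.85 and 0.742 CPM at 10 µg/kg. Its log2 fold change at 10 µg/kg was -5.16 ± 0.85 (SE, edgeR, adjusted p = 0.000138). M66 was marked only at 0.01, 0.3 and 1 µg/kg, where it was higher, so this fall is given as a description of levels.

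At 3 µg/kg against the same vehicle libraries, 17 members changed (19.3%), 2 up and 15 down, by the same edgeR test, against 13.3% of all IDs, 7.94% up and 5.32% down. Of the 64 members with at least 5 CPM in both groups 5 were called, against 14.1% of all such IDs, and the other 12 calls were of members below this level in 1 of the groups. Set B gave 8 falls: M2, M5, M8, M18, M49, M61, M69 and M74. Set C gave 3 falls (M66, M83 and M85), and 0 of the 25 members of set A were called. The log2 fold change of M2 was -4.13 ± 1.22 (SE, edgeR, adjusted p = 0.0297) and that of M66 -5.08 ± 0.85 (adjusted p = 0.000622). M2, M5, M8, M18, M49, M61 and M66 were below 5 CPM in every library at 3 µg/kg, so these falls are given as descriptions of levels. Both doses share the vehicle libraries, and 5 members were called at both, as were 10.4% of all IDs.

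For the 8 falls in set B, picked because they were called, every library at 3 µg/kg lay below every vehicle library. Over the whole of set B this held for 10 of 22 members, and 1 lay above. Among the 88 members 22 lay below and 10 above, against 13.6% and 13.3% of all IDs. The 8 falls lay 2.43 to 5.26 below the mean of vehicle replicates 2 and 3 on the log2(CPM + 0.5) scale, and 0.41 to 2.04 below replicate 1. The difference from replicate 1 was under 2-fold in 5 of the 8 and larger in M2, M18 and M69. Over the whole of set B, called or not, the mean of 17 of the 22 members at 3 µg/kg lay within 2-fold of vehicle replicate 1, and that of 3 lay within 2-fold of the mean of vehicle replicates 2 and 3. In set A the same counts were 17 and 3 of 25. The median log2 difference from vehicle replicate 1 was -0.11 in set B and -0.50 in set A, and from replicates 2 and 3 it was -2.45 and 2.30. The count of member calls changed when a library was left out. It was 22 without vehicle replicate 1, 6 without replicate 2 and 3 without replicate 3. Without replicates 1, 2 and 3 at 3 µg/kg it was 7, 5 and 5. Shares of all IDs in these fits are not given here, so the change is not read as particular to the members. M66 and M85 were called under every alternative run, and the other 15 were not. The vehicle level of a member in sets A and B therefore depended on which vehicle library it was read from. M24 was called as a fall too, with 3 counts in all at 3 µg/kg and 976 in vehicle, though vehicle replicate 2 held 0. That makes vehicle 343 times higher (exact 95% counting interval 117 to 1664), and the edgeR call (adjusted p = 0.0333) was lost in 6 of 11 alternatives, among them those without vehicle replicate 1 or 3 and without any 1 library at 3 µg/kg. M24 was marked only in vehicle and at 0.01, 0.1 and 10 µg/kg, each with a high library. Its fall at 3 µg/kg is therefore a description of levels.

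Over the ranked doses, 23 members had a called slope (26.1%), 7 rising and 16 falling, by edgeR with Benjamini-Hochberg adjustment, against 33.6% of all IDs, 17.8% rising and 15.8% falling. The falls held 4 members of set A (M19, M57, M65 and M70) and 3 of set C (M66, M83 and M85), and the rises 3 of set B (M60, M62 and M72). The slope uses all 8 groups, also those in which a member was below 5 CPM, so it is not independent of the selection. The slope of M66 was -0.76 ± 0.12 log2 per step (SE, edgeR, adjusted p = 2.5e-05). M66 was marked only at 0.01, 0.3 and 1 µg/kg, so its slope too is given as a description of levels. Of the 88 members, 51 were called in none of these 3 dose comparisons, among them M1, M6 and M21, and of all IDs 60.8% were called in none.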

How the data were processed

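The authors deposited raw read counts per Ensembl gene ID, 1 table per library, with 26404 IDs. Libraries were made from TRIzol-isolated liver RNA with a TruSeq kit, per the labels' protocols. The submitters' processing notes name DESeq, HTSeq 0.6.1, SAMtools 0.1.2, TopHat 1.4.1, cutadapt 1.4.1 and FastQC 0.11.2, with no order or settings. Genome build, annotation and strand setting are not given in the sources used here, so counts of overlapping, antisense and near-identical genes are uncertain. The 5 rows of each table that name no gene (35.8% to 47.5% of its total) were left out. CPM scales a library's counts by its gene total.

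Within-group deviations are log2(CPM + 0.5) minus the mean of the 3 libraries of a group. Sets were formed by average linkage on Pearson's r of these deviations and separated at r = 0.6. Dose tests used edgeR 4.0.16 (R 4.3.3) quasi-likelihood fits over all 8 groups with TMM scaling and filterByExpr, which kept 12496 IDs and all 88 described here. Benjamini-Hochberg adjustment ran over all IDs tested, with calls at an adjusted p below 0.05. P-values weigh a fitted difference or slope against the residual spread between these samples, and do not measure that spread. The code was tested on simulated data.

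Alternatives were RLE scaling, DESeq2 1.42.0, other filters, another dose scale, a replicate block, fits restricted to the pair of groups compared, other thresholds of the selection and of the sets, and leaving out each library. Deviations of same-numbered vehicle and 10 µg/kg libraries, over all IDs tested, correlated with r of 0.114 to 0.401 (3 pairs, all above 0.1). Over all groups, 48 of 84 same-numbered pairs and 45 of 168 pairs with different numbers were above 0.1. Whether the numbers pair libraries is therefore not known. The main dose fits left the number out, and the block is an alternative. The members and lists were chosen with earlier results of these data known. The lists of pathway genes, cell type markers and promoter motifs needed gene symbols and could not be applied, since 0 of the 26404 IDs matched the 47357 rows of the RefSeq gene table used here. Naming followed a rule that allows 2 IDs that rose and 2 that fell where IDs have no symbols: the largest called changes at 10 µg/kg without overlap with vehicle.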

Additional observations from a re-analysis of the deposited data

How the results depend on the processing

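The selection gave 168 members at a ratio of at least 3, 39 at 6, 159 when 2 marked groups sufficed and 44 when 4 were needed, and 64 to 88 without any 1 library. With the replicate number as a block, the calls went from 20 to 25 at 10 µg/kg, from 17 to 29 at 3 µg/kg and from 23 to 22 for the dose trend. Same-numbered libraries of vehicle and 3 µg/kg correlated with r of -0.0169 to 0.112, 1 of 3 pairs above 0.1. Of these 6 libraries 2 correlated best with their own number, as did 4 of the 6 of vehicle and 10 µg/kg and 15 of all 24. The block at 3 µg/kg rests on a number of unknown meaning. Leaving out each library in turn gave 15 to 21 calls at 10 µg/kg, 3 to 22 at 3 µg/kg, 16 to 24 for the trend and 0 to 26 for the replicate number, which had 29 with DESeq2 and 13 without a low-count filter. Sets A and B together held 39 to 48 members and their mean deviations correlated at -0.982 to -0.969. The number of sets of at least 3 members was less steady, with 7 when separated at r = 0.5 and 3 to 6 without any 1 library, above 4 for 12 of the 24. The causes were not tested. No log2 fold change of a called member changed sign, and 12 of the 20 calls at 10 µg/kg and 2 of the 17 at 3 µg/kg held under every alternative. Levels alternated between libraries of the same dose in M1, in every group, and in M21, at 0.01, 0.03, 0.3 and 3 µg/kg. Where all 3 libraries of a dose shared a level, as M47 at 10 µg/kg, alternation and dose cannot be told apart.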

Other observations

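The pattern of sets A and B extended to IDs outside the 88. Of 12408 other IDs tested, 203 had r of at least 0.8 with the mean deviation of set A over the 24 libraries and 185 had r of -0.8 or less. With set B the numbers were 247 and 209. Their spread was smaller than that of the members: the median over IDs of the median within-group ratio was 1.62 and 1.70 for those tied to set A, 3.85 for the members and 1.36 for all other IDs tested. These points share libraries, and the values are descriptions.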
